A study of Drosophila melanogaster with 30 samples.

Results

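The lymph gland of *Drosophila melanogaster* was compared between 120 and 96 h after egg laying (AEL), the late larval stage that ends with the breakup of the gland at pupariation. Of the 30 libraries in the series, 9 belong to this comparison: 4 libraries of normal glands at 120 h AEL (libraries 1 to 4) and 5 at 96 h AEL (libraries 1 to 5), taken by their labels. All 9 came from unchallenged larvae of the wild-type strain Oregon-R, labelled as steady state, with no transgene or agent in either group. Each was made from many dissected glands that were pooled and dissociated with enzymes, so that a library averages over animals and its spread is that between preparations. Cells were profiled by Drop-seq, in which single cells meet barcoded beads in droplets and each transcript is counted once through its unique molecular identifier (UMI). The series also holds normal glands of 72 h AEL, circulating hemocytes and samples from wasp-infested larvae, of which the 5 libraries of 72 h AEL and the 6 of the normal circulation at 96 and 120 h AEL are used below for reference.

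The lymph gland is the organ in which the blood cells (hemocytes) of the late larva arise. Prohemocytes (PH) in the inner medullary zone, known for *Tep4* and *Ance*, are kept undifferentiated by signals that include those from the posterior signaling center (PSC). They give rise to plasmatocytes (PM), which engulf microbes and dead cells and express *Hml* and *Pxn*, and to crystal cells (CC), which carry prophenoloxidases for melanization. Mostly upon wasp infestation they also give rise to lamellocytes (LM) that encapsulate. At the end of larval life a pulse of the steroid hormone ecdysone starts metamorphosis, and the gland disperses its hemocytes.

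Barcodes were kept as cells when they had 400 to 5000 genes and at most 10% of UMIs on mitochondrially encoded genes, which left 11484 of 11702 barcodes at 120 h AEL and 9830 of 10027 at 96 h AEL. The summed UMIs of a library ranged from 13898044 to 38244591 at 120 h AEL and from 6068692 to 20468071 at 96 h AEL. Any 2 of the 9 libraries had 4 to 26 cell barcodes in common. Genes of the heat shock list took 2.01% of all UMIs in library 2 of 120 h AEL, against 0.160% to 0.444% in the other libraries of that age and 0.0882% to 0.194% at 96 h AEL. Library 4 of 120 h AEL stood between the ages. Over the 2000 most abundant genes its correlation was 0.950 to 0.963 with libraries 1 to 3 of its own age and 0.926 to 0.956 with the 96 h libraries, whereas libraries 1 to 3 had 0.866 to 0.906 with the 96 h libraries and 0.979 to 0.984 among themselves. All these correlations are across genes, which share the libraries and are not independent. Library 4 also had a lower median of UMIs per cell, 4628, against 7745.5, 9877.5 and 7514 in libraries 1 to 3. At 96 h AEL that median was 4708 to 8512. The part of depth in the position of library 4 was not tested. The defining markers of the labelled tissue were present in every library. *Ance* had 3591 to 6706 CPM at 120 h AEL and 1859.9 to 2192 CPM at 96 h AEL. *Hml* had 295 to 1508 CPM and 704 to 2095 CPM at these ages. CPM is a gene's UMI count scaled to the same total in every library, with edgeR's TMM factor. The summed levels of gene lists below are without this factor.

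The glands of 120 and 96 h AEL differed in a large part of their transcripts. Of 7760 genes tested with edgeR's quasi-likelihood test on the summed UMIs, 1908 were higher (24.6%) and 1722 lower (22.2%) at 120 h AEL at a Benjamini-Hochberg adjusted p (FDR) under 0.05, 46.8% in all. The large changes lay mostly on one side: 313 genes rose by at least 4-fold and 80 fell by at least 4-fold, and 96 rose and 9 fell by at least 16-fold. The libraries of the ages did not overlap for 2830 genes (36.5%), 1398 of them higher (18%) and 1432 lower (18.5%) at 120 h AEL. In sums over whole libraries, fewer cells of a type and less RNA per cell cannot be told apart. Without library 4 the test called 4066 of 7986 genes (50.9%, of which 26.8% higher and 24.2% lower), and without library 2 it called 3164 of 7789 (40.6%, of which 21.9% higher and 18.7% lower). Without both it called 3628 of 8055 (45%). Of the 7760 genes, 2059 were higher without library 4, and that library lay below each of the other 120 h libraries for 1375 of them. The same count for libraries 1, 2 and 3 was 417 of 1742, 309 of 1702 and 142 of 1592.

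The 12 largest rises, among genes with at least 20 CPM at 120 h AEL whose libraries did not overlap and which also passed without library 2, were led by *CG34296*, *NLaz* and *Dtg*, which were near 0 at 96 h AEL. *CG34296* had 1863, 2227, 1058 and 80.8 CPM in libraries 1 to 4 of 120 h AEL, against 0.151, 0.0501, 0.511, 0.577 and 0.134 CPM in libraries 1 to 5 of 96 h AEL (log2 fold change 12.13, SE 1.06, FDR 1.59e-05). *NLaz*, the lipocalin Neural Lazarillo, a secreted carrier of small lipids, had 210.5, 237, 90.8 and 4.77 CPM at 120 h AEL and 0.151, 0, 0, 0.173 and 0.134 CPM at 96 h AEL (log2 fold change 10.53, SE 1.25, FDR 9.44e-05). In all 5 libraries of 96 h AEL 6 UMIs of it were counted. Libraries 1 to 3 of 120 h AEL were high for both genes and library 4 was far lower, yet above every 96 h library. In the RefSeq annotation of Release 6, *CG34296* lies on chromosome 3R from 29722538 to 29723013 and *NLaz* on chromosome 2L from 1359837 to 1361821. *Dtg*, named as a target gene of the BMP ligand Dpp, had 238, 223, 142 and 19.0 CPM at 120 h AEL and 0, 0.250, 0.511, 0.231 and 0.334 CPM at 96 h AEL (log2 fold change 9.07, SE 0.81, FDR 1.81e-05). *Ama*, which encodes the secreted immunoglobulin-domain adhesion protein Amalgam, had 533, 554, 412 and 69.4 CPM at 120 h AEL and 2.86, 2.45, 1.36, 1.85 and 2.61 CPM at 96 h AEL (log2 fold change 7.48, SE 0.58, FDR 1.06e-05). For *Cpr49Ac*, a cuticle protein gene, the values were 907, 963, 947 and 227 CPM at 120 h AEL and 2.41, 4.46, 4.26, 3.98 and 4.01 CPM at 96 h AEL (log2 fold change 7.60, SE 0.44, FDR 2.15e-06). Again library 4 was the lowest of its age for all 3 genes and the ages did not overlap. *CG6910*, a predicted myo-inositol oxygenase, was the exception among the 12, as library 4 was not set apart from the others. It had 63.0, 81.1, 105 and 66.4 CPM at 120 h AEL and 0.452, 0.501, 0.170, 0.0577 and 0.802 CPM at 96 h AEL (log2 fold change 7.62, SE 0.35, FDR 7.25e-07).

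*Gal*, a beta-galactosidase, had 219.6, 315, 228 and 45.3 CPM at 120 h AEL and 0.903, 1.55, 0.341, 0.693 and 2.34 CPM at 96 h AEL (log2 fold change 7.36, SE 0.61, FDR 1.39e-05). *Obp99b*, an odorant-binding protein gene, had 74.4, 121, 33.7 and 1.79 CPM at 120 h AEL and 0, 0.250, 0.170, 0.173 and 0.0668 CPM at 96 h AEL (log2 fold change 8.49, SE 1.16, FDR 2.14e-04). Its level in library 4 was close to the floor, as was that of *CG42792*. That gene had 81.2, 96.7, 91.1 and 1.86 CPM at 120 h AEL and 0, 0.100, 0.0852, 0.866 and 0.0668 CPM at 96 h AEL (log2 fold change 7.96, SE 1.09, FDR 2.18e-04). The other rises by this rule, *CG4950*, *CG6357* and *CG43446*, had log2 fold changes of 8.95, 7.24 and 7.20. They had 16.3 to 145, 8.87 to 99.7 and 3.36 to 49.8 CPM at 120 h AEL and at most 0.751 CPM in any 96 h library. Without library 4 the log2 fold changes of the 12 ran from 7.57 (*CG43446*) to 12.52 (*CG34296*). All 12 passed the threshold without library 4, without libraries 2 and 4, and with DESeq2, though these fits use counts from which the 12 were chosen. Library 4 lay between the other 120 h libraries and the 96 h libraries in 11 of them.

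**Figure D1:**
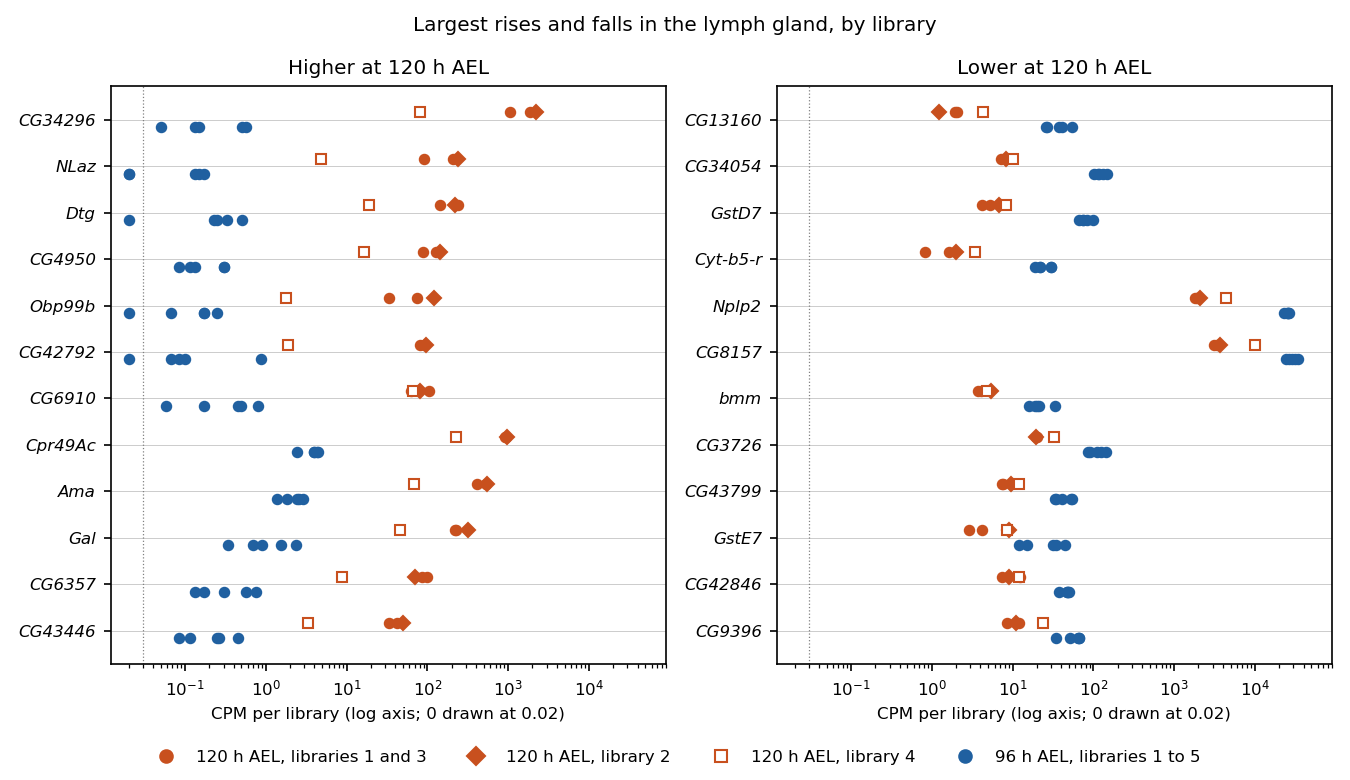
Level of the 24 genes with the largest rises (left) and falls (right), in CPM on a log axis, with 1 point per library; 120 h AEL libraries are the upper, orange marks of each gene and 96 h AEL libraries the lower, blue marks. Genes were chosen so that the ages do not overlap. The open square, library 4 of 120 h AEL, lies between the other 120 h libraries and the 96 h libraries for 11 of 12 rises and 9 of 12 falls.

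The 12 largest falls by the same rule, with the 20 CPM at 96 h AEL, were smaller in fold but included transcripts with very many UMIs in the younger gland. *Nplp2*, which encodes a neuropeptide-like precursor, lies on chromosome 3L from 13356376 to 13357223. It had 1803, 2118, 1944 and 4435 CPM in libraries 1 to 4 of 120 h AEL, against 25789, 26425, 24620.0, 25540.0 and 22654 CPM in libraries 1 to 5 of 96 h AEL (log2 fold change −3.28, SE 0.26, FDR 1.17e-05). *CG8157* had 3098, 3729.9, 3406 and 9896 CPM at 120 h AEL and 24229, 26096, 29041, 31431 and 33796 CPM at 96 h AEL (log2 fold change −2.52, SE 0.33, FDR 1.74e-04). Library 4 held the highest level of its age for both, and the 96 h libraries were all above it. *CG13160* had 1.92, 1.21, 2.05 and 4.33 CPM at 120 h AEL and 26.0, 26.9, 40.9, 54.2 and 37.7 CPM at 96 h AEL (log2 fold change −4.03, SE 0.35, FDR 1.59e-05). *CG34054* had 7.14, 8.27, 8.40 and 10.1 CPM at 120 h AEL and 146, 113, 131, 119 and 103 CPM at 96 h AEL (log2 fold change −3.85, SE 0.15, FDR 2.22e-07). In contrast to the rises, *CG34054* was almost as low in library 4 as in libraries 1 to 3. *Cyt-b5-r*, a cytochrome b5-related gene, had 0.827, 2.01, 1.64 and 3.43 CPM at 120 h AEL and 21.98, 18.9, 29.8, 29.9 and 21.8 CPM at 96 h AEL (log2 fold change −3.69, SE 0.32, FDR 1.59e-05). The genes *CG3726*, *CG43799*, *CG42846* and *CG9396* had log2 fold changes of −2.29, −2.26, −2.18 and −2.06. *GstD7*, *GstE7* and *bmm* complete the 12 and are described with their families below. All 12 falls passed the threshold without library 4, without libraries 2 and 4, and with DESeq2, though these fits use counts from which they were chosen. Transcripts of muscle and dorsal vessel, to which the gland is attached, moved the same way, with 9 of 10 tested markers lower, beside 22.2% over all genes. The summed level of the 11 listed was 10.7 to 30.2 CPM at 120 h AEL and 42.5 to 152 CPM at 96 h AEL, and none of the 11 was at 0 in either age. Their part in these falls was not tested.

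The tested genes of the ecdysone response were mostly higher at 120 h AEL. All gene lists of this report were chosen with earlier results of these data known. Their shares beside those over all genes are therefore no separate support. Of 23 listed, 17 were tested, 12 were higher and 1 lower at 120 h AEL, beside 24.6% higher and 22.2% lower over all genes. The median log2 fold change of the list was 1.00, against 0.01 over all genes, and its summed level was 1206 to 1769 CPM at 120 h AEL and 664 to 743 CPM at 96 h AEL. Without library 2 the list had 10 higher and 1 lower, and without library 4 it had 12 and 2. *br* encodes the Broad transcription factors of the larval-to-pupal switch. It had 373, 410.3, 471 and 316 CPM in libraries 1 to 4 of 120 h AEL, against 51.8, 68.9, 60.3, 77.9 and 91.7 CPM in libraries 1 to 5 of 96 h AEL (log2 fold change 2.48, SE 0.17, FDR 6.29e-06). *Hr4*, a nuclear receptor induced by the hormone, had 34.0, 49.6, 21.8 and 2.09 CPM at 120 h AEL and 0.452, 0.300, 0.511, 0.404 and 0.668 CPM at 96 h AEL (log2 fold change 5.86, SE 0.78, FDR 1.79e-04). *E23*, an ABC transporter that limits the ecdysone response, had 17.9, 24.3, 12.3 and 3.43 CPM at 120 h AEL and 0.753, 0.601, 0.511, 0.462 and 0.935 CPM at 96 h AEL (log2 fold change 4.49, SE 0.51, FDR 7.61e-05). The 3 genes differed in library 4, which was close to the other 120 h libraries for *br* and well below them for *Hr4* and *E23*, without reaching the 96 h range in any. The receptor itself rose less. *EcR* had 67.7, 92.3, 54.8 and 74.6 CPM at 120 h AEL and 27.7, 28.0, 26.8, 28.5 and 30.3 CPM at 96 h AEL (log2 fold change 1.35, SE 0.14, FDR 3.60e-05). *EcR*, *Eip74EF*, *Eip93F*, *Eip71CD* and *Eip63F-1* were chosen after their values were seen.

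*Eip74EF*, an ETS transcription factor of the early ecdysone response, had 49.8, 51.8, 27.9 and 19.3 CPM at 120 h AEL and 9.33, 4.46, 4.17, 4.10 and 5.55 CPM at 96 h AEL (log2 fold change 2.81, SE 0.33, FDR 8.48e-05). *Eip93F*, the regulator E93 of the following stage, had 24.1, 38.3, 23.2 and 3.43 CPM at 120 h AEL and 0.301, 1.20, 1.62, 0.231 and 1.67 CPM at 96 h AEL (log2 fold change 4.42, SE 0.65, FDR 3.33e-04). Both were separated by age in every library. *Eip71CD*, a methionine sulfoxide reductase, had 54.3, 70.3, 22.6 and 6.71 CPM at 120 h AEL and 5.42, 7.41, 4.94, 5.71 and 4.94 CPM at 96 h AEL (log2 fold change 2.75, SE 0.52, FDR 0.00146). Its library 4 fell within the 96 h range. The member with the most UMIs, *Eip55E*, encodes cystathionine gamma-lyase and had 425 to 826 CPM at 120 h AEL and 247 to 255 CPM at 96 h AEL (log2 fold change 1.41, SE 0.16, FDR 8.47e-05). The single fall was *Eip63F-1*, a calcium-binding protein, at 0.0467 to 0.305 CPM at 120 h AEL and 1.35 to 3.66 CPM at 96 h AEL (log2 fold change −3.20, SE 0.47, FDR 3.25e-04). Among genes of ecdysteroid synthesis, which the neighbouring ring gland carries out, *sro* was higher at 120 h AEL, with 21.999 to 48.3 CPM against 7.11 to 12.5 CPM at 96 h AEL (log2 fold change 1.80, SE 0.23, FDR 1.47e-04). In contrast, *spok* and *phm* were lower, by 4.60 (SE 1.25, FDR 0.0110) and 3.97 (SE 1.08, FDR 0.0108) on the log2 scale. Their levels were uneven at 96 h AEL, and *spok* had 0.0934 to 1.04 CPM at 120 h AEL, against 0.602, 3.41, 0.511, 42.01 and 23.2 CPM in libraries 1 to 5 of 96 h AEL. Both lost the call without libraries 2 and 4 of 120 h AEL together. The 8 ring gland markers summed to 23.0 to 54.0 CPM at 120 h AEL and 11.04 to 243 CPM at 96 h AEL, with none at 0 in either age. Single genes carried these sums. *sro* gave 3170 of 3555 UMIs at 120 h AEL, and *Akh* 4107 of 7697 at 96 h AEL, nearly all of them in libraries 4 and 5. The part of ring gland RNA in the ecdysone-related values was not tested.

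Of 8 tested cell death genes 6 were higher, 0 lower and 2 did not pass at 120 h AEL (median log2 fold change 1.08), beside 24.6% higher over all genes. *rpr* (reaper), an inhibitor of the apoptosis inhibitor Diap1, had 42.3, 41.5, 34.6 and 8.501 CPM at 120 h AEL and 1.35, 5.26, 0.852, 1.5005 and 0.668 CPM at 96 h AEL (log2 fold change 3.93, SE 0.59, FDR 3.68e-04). *hid*, which acts beside it, had 15.6, 26.8, 16.9 and 19.2 CPM at 120 h AEL and 1.66, 3.36, 2.30, 2.02 and 2.27 CPM at 96 h AEL (log2 fold change 3.04, SE 0.22, FDR 6.72e-06). The ages did not overlap for either, and *hid*, unlike *rpr*, was as high in library 4 as in the others. The initiator caspase gene *Dronc* had 89.1 to 140.5 CPM at 120 h AEL and 44.8 to 69.4 CPM at 96 h AEL (log2 fold change 0.98, SE 0.17, FDR 7.25e-04). The effector caspases *Dcp-1* and *Drice* had log2 fold changes of 1.51 and 0.79 and the apoptosome component *Dark* one of 1.18, all 3 chosen after their values were seen. The list was the same in count without library 2, without library 4 and without both, with 6 higher and 0 lower in each.

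Of 20 tested subunit genes of the vacuolar ATPase, the proton pump that acidifies lysosomes, 15 were higher, 0 lower and 5 did not pass (median log2 fold change 0.45), beside 24.6% higher over all genes. *Vha100-1*, which led them, had 67.9 to 105 CPM at 120 h AEL and 32.4 to 46.9 CPM at 96 h AEL (log2 fold change 1.22, SE 0.14, FDR 8.98e-05). The proteolipid subunit gene *Vha16-1* had the most UMIs, with 2017, 2169, 1856 and 1374 CPM at 120 h AEL and 1036, 1189.5, 908, 976 and 906 CPM at 96 h AEL (log2 fold change 0.89, SE 0.14, FDR 4.51e-04). Library 4 was the lowest of the 120 h libraries for both subunits and above all 96 h libraries. Without library 2 the count was 9 higher and 0 lower, beside 21.9% higher over all genes, and without library 4 it was 16 higher and 3 lower. Autophagy genes counted 10 higher, 1 lower and 8 not passing of 19 tested (median 0.38). Of these, *Atg18b* had 12.2 to 28.2 CPM at 120 h AEL and 8.55 to 15.4 CPM at 96 h AEL (log2 fold change 1.07, SE 0.24, FDR 0.00432). *Atg8a*, which coats the autophagosome, had 548 to 707 CPM and 305 to 566 CPM at these ages (log2 fold change 0.50, SE 0.16, FDR 0.0255). The libraries overlapped for both, and *Atg8a* lost the call without library 2 of 120 h AEL (FDR 0.0551), without library 1 of that age and without library 3 or 4 of 96 h AEL.

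Receptors with which plasmatocytes engulf particles were higher at 120 h AEL, whereas the plasmatocyte markers *Hml* and *Pxn* were not. Of 9 tested members of the plasmatocyte and phagocytosis list, 6 were higher and 0 lower (median log2 fold change 0.71), beside 24.6% higher over all genes. *crq* (croquemort) encodes a scavenger receptor for apoptotic cells. It had 155, 171, 152 and 75.2 CPM in libraries 1 to 4 of 120 h AEL, against 17.6, 23.7, 13.8, 20.9 and 21.6 CPM in libraries 1 to 5 of 96 h AEL (log2 fold change 2.82, SE 0.24, FDR 1.40e-05). *drpr* (Draper), an engulfment receptor, had 120.3, 138, 141 and 83.9 CPM at 120 h AEL and 25.0, 26.5, 23.4, 26.1 and 33.8 CPM at 96 h AEL (log2 fold change 2.16, SE 0.16, FDR 8.54e-06). In libraries 1 to 3 both genes were more than 3 times as high as in any 96 h library, with library 4 in between. *eater* and *NimC1*, receptors for bacteria, had 370.2 to 501 and 202 to 211 CPM at 120 h AEL and 162 to 234 and 114 to 140.4 CPM at 96 h AEL, with log2 fold changes of 1.24 (FDR 4.45e-05) and 0.71 (FDR 9.95e-05). Library 4 was not set apart for these. *Hml*, the clotting protein hemolectin, had 295, 460.3, 505 and 1508 CPM at 120 h AEL and 704, 1121, 1533, 1468 and 2095 CPM at 96 h AEL (log2 fold change −1.001, SE 0.45, FDR 0.0899). Without library 4 it was lower at 120 h AEL (−1.72, FDR 0.00129). *Pxn*, the matrix enzyme peroxidasin, had 276 to 677 CPM at 120 h AEL and 275 to 643 CPM at 96 h AEL, and did not pass the threshold (log2 fold change 0.04, SE 0.28, FDR 0.910). *vir-1*, a gene induced by viral infection, had 876, 796, 1099 and 370.4 CPM at 120 h AEL and 66.1, 114, 59.0, 126 and 99.6 CPM at 96 h AEL (log2 fold change 3.07, SE 0.32, FDR 4.44e-05).

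Of the prohemocyte markers, *Ance*, a peptidase related to angiotensin-converting enzyme, was higher at 120 h AEL in every library, with 6706, 5712, 5690.1 and 3591 CPM against 2027, 2167, 1957, 2192 and 1859.9 CPM at 96 h AEL (log2 fold change 1.41, SE 0.15, FDR 5.64e-05). *Tep4*, a thioester protein, had 998, 937, 998 and 1177 CPM at 120 h AEL and 650.3, 809, 1098, 1111 and 1287 CPM at 96 h AEL, overlapping levels with a log2 fold change of 0.05 (SE 0.18, FDR 0.834). In all, 2 of 4 prohemocyte markers were higher and 0 lower, and 1 was higher without library 2. Over all genes 24.6% were higher and 22.2% lower, which also stands beside the short marker lists that follow. Crystal cell markers counted 1 higher and 1 lower of 6 (median −0.32). *PPO1* and *PPO2*, the prophenoloxidases, had 273 to 743 and 379.8 to 952 CPM at 120 h AEL and 574 to 785 and 742 to 999.9 CPM at 96 h AEL, with FDRs of 0.274 and 0.312. The lineage factor *lz* had an FDR of 0.274. Among lamellocyte markers 2 of 5 were higher and 0 lower, and 4 of 5 without library 4, where 26.8% were higher over all genes. The integrin subunit *mys* had 449 to 686 CPM at 120 h AEL and 188 to 306 CPM at 96 h AEL (log2 fold change 1.02, SE 0.17, FDR 6.82e-04). *atilla*, the surface antigen of lamellocytes, had 76.8, 19.1, 66.2 and 22.1 CPM at 120 h AEL and 0.753, 10.7, 2.47, 37.3 and 2.81 CPM at 96 h AEL, and the ages overlapped in library 4 of 96 h AEL. Its FDR was 0.0468 without library 4 of 120 h AEL and 0.0617 with it, and it also passed without library 4 of 96 h AEL. Of 6 PSC markers 1 was higher and 0 lower. The insulin-like peptide *Ilp6* had 49.0 to 110.4 CPM at 120 h AEL and 25.0 to 37.9 CPM at 96 h AEL (log2 fold change 1.37, SE 0.21, FDR 3.75e-04). The defining *Antp* and *kn* (collier) had FDRs of 0.563 and 0.119, and *Antp* passed without library 1 of 96 h AEL.

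Further genes serve to name lymph gland classes in the study. *Lsd-2*, a lipid droplet coat protein, had 51.4, 119, 45.7 and 62.6 CPM at 120 h AEL and 43.8, 33.5, 44.2, 31.7 and 51.7 CPM at 96 h AEL (log2 fold change 0.77, SE 0.27, FDR 0.0339). It lost the call without library 2 (FDR 0.112), and also without any of libraries 1 to 4 of 96 h AEL. *Sirup*, an assembly factor of the respiratory chain, had 21.6 to 37.99 CPM at 120 h AEL and 13.0 to 24.6 CPM at 96 h AEL (log2 fold change 0.86, SE 0.21, FDR 0.00597). *CG3397* was lower, with 0.937 to 1.79 CPM and 2.38 to 4.62 CPM (log2 fold change −1.35, SE 0.27, FDR 0.00212). The lipophorin receptor gene *LpR2* and *CG18547* did not pass the threshold, with log2 fold changes of 0.33 (FDR 0.160) and 0.19 (FDR 0.304).

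Of 12 tested antimicrobial peptide genes, 7 were higher and 3 lower at 120 h AEL (58.3% and 25%; median log2 fold change 1.22). Over all genes 24.6% were higher and 22.2% lower, so that the share of lower members is near the background. *Drs* (drosomycin), the antifungal peptide, had 1394, 1701, 2176 and 1150.3 CPM in libraries 1 to 4 of 120 h AEL, against 269, 469.6, 241, 342 and 515 CPM in libraries 1 to 5 of 96 h AEL (log2 fold change 2.13, SE 0.25, FDR 9.35e-05). *AttD*, an attacin, had 535, 408, 366 and 110.1 CPM at 120 h AEL and 24.5, 65.0, 22.8, 50.4 and 51.9 CPM at 96 h AEL (log2 fold change 3.04, SE 0.44, FDR 2.86e-04). The other attacins moved with it, *AttA* by 1.35 and *AttB* by 1.09 on the log2 scale and *AttC*, at 1.81 to 3.70 CPM at 120 h AEL and 0 to 0.701 CPM at 96 h AEL, by 3.25. Of the 4 cecropins, peptides against bacteria, 3 were lower. *CecA2* had 813, 556, 859.9 and 1190.5 CPM at 120 h AEL and 1669, 2185, 1329, 2169 and 1746 CPM at 96 h AEL (log2 fold change −1.09, SE 0.21, FDR 0.00181). *CecC* had 868, 532, 839 and 927 CPM at 120 h AEL and 1390.2, 1938, 1093, 1975 and 1585 CPM at 96 h AEL (log2 fold change −1.01, SE 0.20, FDR 0.00217). All 120 h libraries were below all 96 h libraries for both, with library 4 the highest of its age. *CecA1* had a log2 fold change of −1.133 (FDR 8.03e-04), and *CecB*, which lies between *CecA2* and *CecC* on chromosome 3R, did not pass (−0.27, FDR 0.343). Reads of these short, similar cecropin genes, and of *AttA* and *AttB*, could be split between copies, which makes their single values less certain. *Drs*, *AttA*, *AttB*, *CecA1* and *CecB* were chosen after their values were seen.

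Peptidoglycan recognition proteins, which bind or cleave bacterial cell wall, counted 6 higher and 1 lower of 11 tested (median 0.34). Over all genes 24.6% were higher and 22.2% lower, which also stands beside the thioester and JAK/STAT counts below. The amidase gene *PGRP-SC2* had 147, 174, 149 and 45.5 CPM at 120 h AEL and 2.71, 9.76, 4.51, 5.48 and 5.08 CPM at 96 h AEL (log2 fold change 4.49, SE 0.41, FDR 2.21e-05), a gene chosen after its values were seen. Its neighbour *PGRP-SC1b* was scarce, with 2.01 to 9.22 CPM at 120 h AEL and 0 to 0.173 CPM at 96 h AEL, where all libraries held 8 UMIs (log2 fold change 5.29, SE 0.59, FDR 6.43e-05). Its reads could be shared with the near-identical *PGRP-SC1a*. The pair of members with the most UMIs was lower or did not pass. *PGRP-LF* had 143 to 173 CPM at 120 h AEL and 182 to 244 CPM at 96 h AEL (log2 fold change −0.42, SE 0.11, FDR 0.00881). *PGRP-LB* had an FDR of 0.436. Of 4 tested thioester proteins 2 were higher and 0 lower, among them *Tep2* with 51.3 to 72.4 CPM at 120 h AEL and 9.48 to 28.2 CPM at 96 h AEL (log2 fold change 1.44, SE 0.24, FDR 6.77e-04). The JAK/STAT list counted 4 higher and 0 lower of 8 tested. Its ligand gene *upd2* had 3.43 to 10.9 CPM at 120 h AEL and 0.903 to 2.71 CPM at 96 h AEL (log2 fold change 1.92, SE 0.40, FDR 0.00243). The ligand gene *upd3* had a log2 fold change of 0.85, and the feedback inhibitors *Socs36E* and *Ptp61F* had ones of 1.21 and 0.65. Of these *upd3* and *Ptp61F* were chosen after their values were seen. The transcription factor gene *Stat92E* had an FDR of 0.0775, and was lower at 120 h AEL without library 4 (−0.58, FDR 0.00101).

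**Figure D2:**
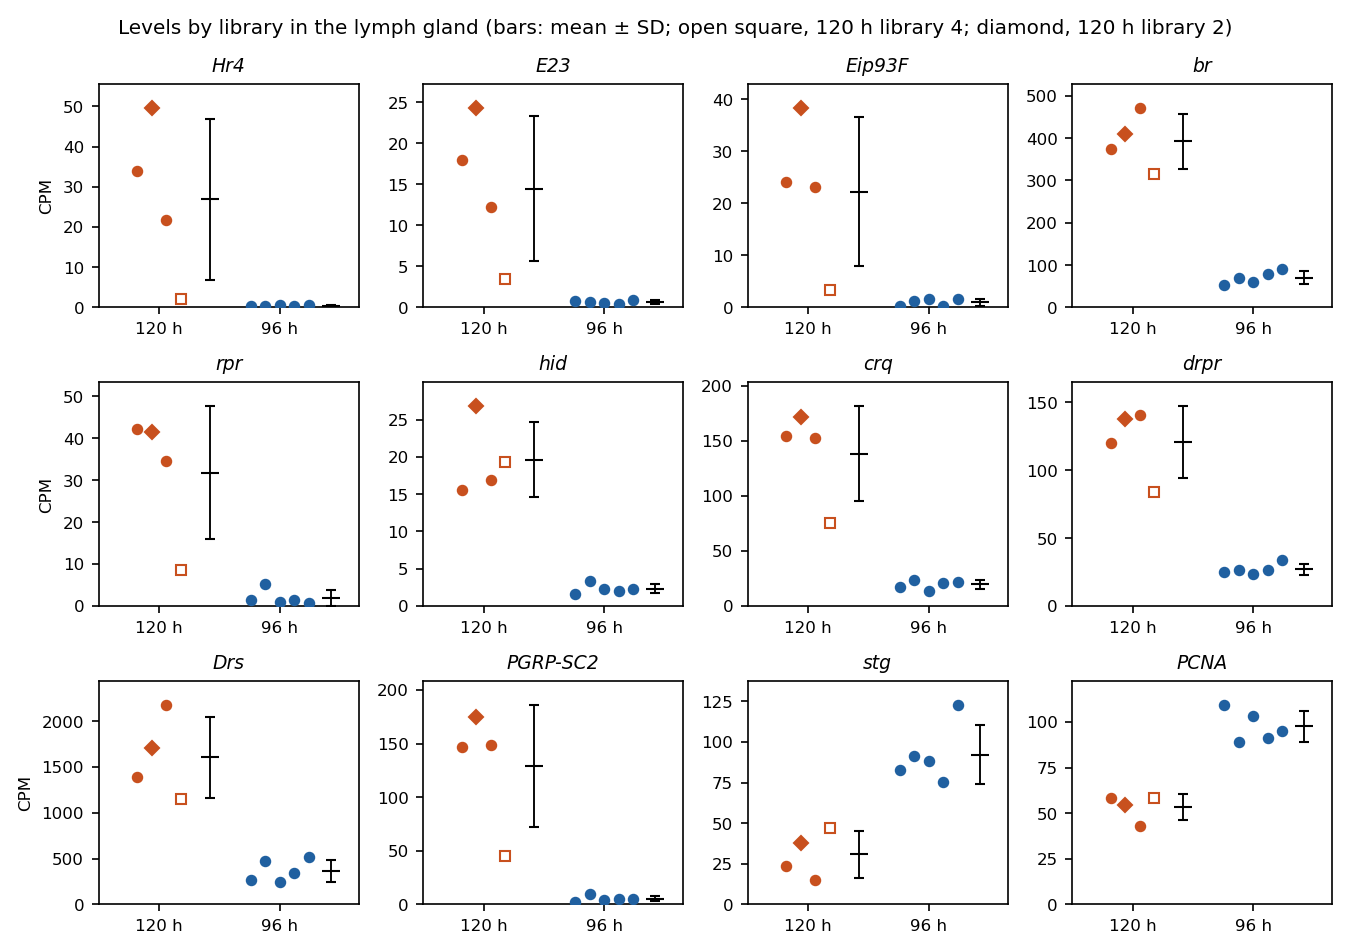
Level of 12 genes of the ecdysone response, cell death, phagocytosis, immunity and cell cycle in each library, in CPM on linear axes from 0. The left group of each panel is 120 h AEL (4 libraries) and the right group 96 h AEL (5 libraries), with the mean and SD beside each. The ages do not overlap in any panel, and 120 h libraries are higher in 10 panels and lower for *stg* and *PCNA*. The 12 genes were picked for display, *Eip93F*, *Drs* and *PGRP-SC2* after their values were seen. Over all genes tested the ages did not overlap for 36.5%.

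Genes of cell division fell nearly throughout. Of 35 tested genes of DNA replication 33 were lower and 0 higher at 120 h AEL (median log2 fold change −0.88), and of 37 mitotic genes 33 were lower and 1 higher (median −1.04), beside 22.2% lower over all genes. Their summed levels did not overlap, with 410 to 617 CPM at 120 h AEL and 879 to 1127 CPM at 96 h AEL for replication, and 373 to 647 CPM and 943 to 1174 CPM for mitosis. *stg* (string) encodes the Cdc25 phosphatase that starts mitosis. It had 23.9, 37.6, 14.8 and 47.1 CPM in libraries 1 to 4 of 120 h AEL, against 82.9, 91.4, 88.1, 75.3 and 123 CPM in libraries 1 to 5 of 96 h AEL (log2 fold change −1.59, SE 0.29, FDR 0.00127). *PCNA*, the sliding clamp of replication, had 58.3, 54.3, 42.8 and 58.2 CPM at 120 h AEL and 109, 89.1, 103, 91.4 and 94.9 CPM at 96 h AEL (log2 fold change −0.87, SE 0.12, FDR 1.82e-04). For both genes every 120 h library lay below every 96 h library. *geminin*, *Cdk1* and the helicase subunit *Mcm5* had log2 fold changes of −0.68, −0.86 and −1.36. The largest falls of the lists were those of the origin recognition gene *Orc1* (−1.72) and the spindle gene *asp* (−1.69). Both were scarce, with 0.327 to 0.697 and 0.673 to 1.79 CPM at 120 h AEL and 1.10 to 2.41 and 3.06 to 5.48 CPM at 96 h AEL. The single mitotic gene to rise was *cnn*, which encodes a centrosomal protein and was named after its values were seen (0.58, FDR 0.0112). The counts were 33 and 34 lower without library 4 and 32 and 33 without library 2.

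Of 72 genes of mitochondrial ribosomal proteins 58 were lower and 0 higher at 120 h AEL (median −0.44), beside 22.2% lower over all genes. Of 87 tested genes of cytosolic ribosomal proteins 39 were higher, 1 was lower and 47 did not pass (median 0.24), beside 24.6% higher over all genes. Without the TMM factor, the summed levels of the 92 listed genes overlapped between the ages. The 120 h libraries held 371090 to 413460 CPM, and the 96 h libraries 358340 to 386510 CPM. TMM factors ran from 0.894 to 0.987 in the 120 h libraries and from 0.976 to 1.095 in the 96 h libraries. The part of this scaling in the median was not tested. *mRpL12* had 72.8, 73.7, 69.5 and 71.7 CPM at 120 h AEL and 108, 106, 115, 111 and 104 CPM at 96 h AEL (log2 fold change −0.60, SE 0.08, FDR 1.56e-04), and *mRpL34* a log2 fold change of −1.14. *RpL22* had 2176, 1959.7, 1934 and 2469 CPM at 120 h AEL and 1362, 866, 1383, 953 and 995 CPM at 96 h AEL (log2 fold change 0.94, SE 0.16, FDR 6.34e-04). *RpS14b*, a near copy of another gene of its family, had a log2 fold change of 0.72. The spread within each age was small for *mRpL12*, and the ages did not overlap for either gene. Cytosolic calls depended on the libraries, with 29 higher and 1 lower without library 2 and 29 and 3 without library 4. Without both, 19 of 87 were higher and 2 lower, no larger a share than the 24.5% higher over all genes in that fit. Nuclear genes of oxidative phosphorylation counted 14 lower, 0 higher and 11 not passing of 25 (median −0.30). Of these the ATP synthase subunit gene *sun* had 217, 285, 280.2 and 311 CPM at 120 h AEL and 488, 561, 541, 588 and 545 CPM at 96 h AEL (log2 fold change −0.99, SE 0.12, FDR 8.50e-05). *Cyt-c-p*, cytochrome c, had 256, 192, 252 and 238 CPM at 120 h AEL and 486, 437, 484, 432 and 381 CPM at 96 h AEL (log2 fold change −0.92, SE 0.12, FDR 1.37e-04).

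**Figure D3:**
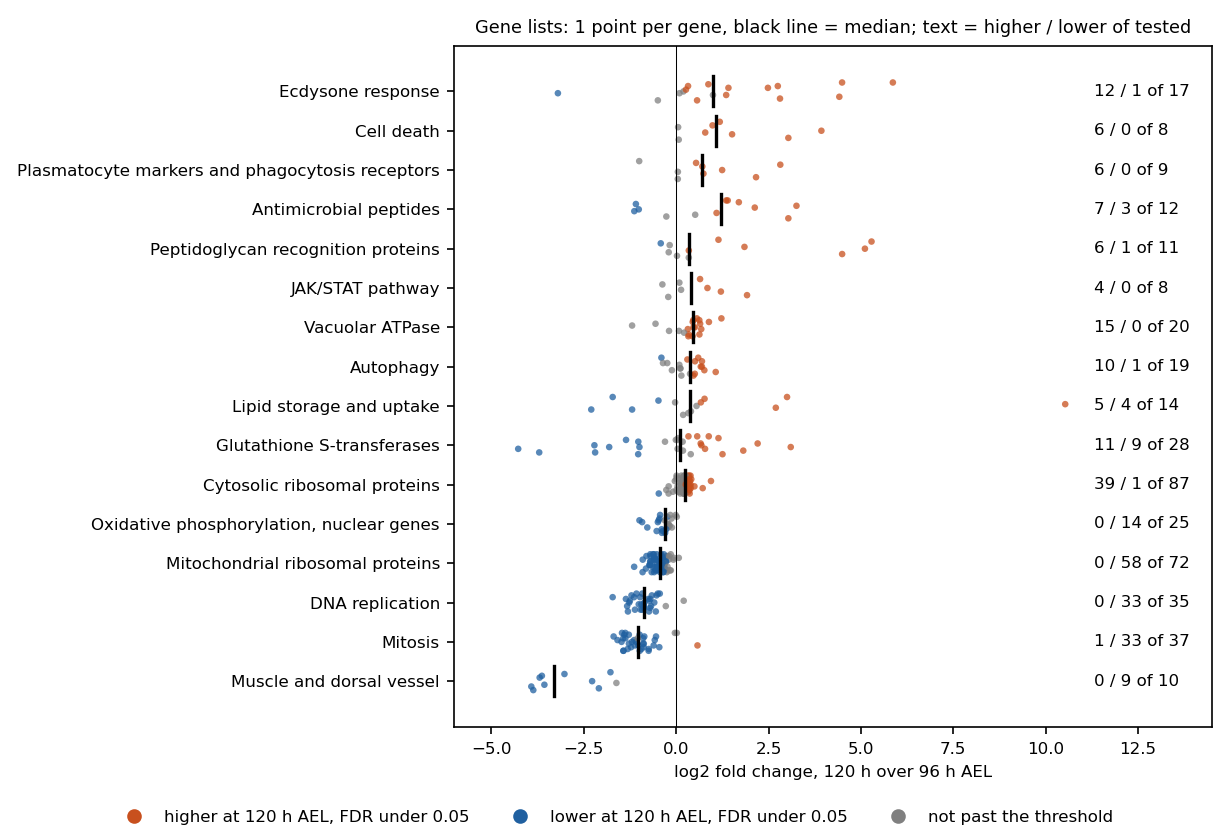
Log2 fold change of 120 h over 96 h AEL for the tested members of 16 gene lists, with 1 point per gene and a black line at the median of each list; orange points were higher and blue points lower at FDR under 0.05. Replication and mitosis lie left of 0 with medians of −0.88 and −1.04, ecdysone response and cell death right of it with medians of 1.00 and 1.08, and antimicrobial peptides and glutathione S-transferases on both sides.

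The list of lipid storage and uptake counted 5 higher and 4 lower of 14 tested (35.7% and 28.6%; median 0.36). Over all genes 24.6% were higher and 22.2% lower, so that the list's counts are not far from the background. *bmm* (brummer), the lipase that mobilizes stored triglyceride, had 4.05, 5.37, 3.72 and 4.77 CPM at 120 h AEL and 20.0, 19.1, 33.6, 15.9 and 21.2 CPM at 96 h AEL (log2 fold change −2.30, SE 0.22, FDR 2.88e-05). The fatty acid synthesis gene *ACC* fell by 1.72 on the log2 scale (FDR 4.97e-04). The glial lipocalin gene *GLaz* had 6.19 to 14.48 CPM at 120 h AEL and 0.937 to 2.20 CPM at 96 h AEL (log2 fold change 2.70, SE 0.29, FDR 5.65e-05). *Rfabg*, the precursor of the lipophorin apoproteins, had 4.25 to 9.76 CPM at 120 h AEL and 0.341 to 1.51 CPM at 96 h AEL (log2 fold change 3.00, SE 0.39, FDR 1.68e-04). *ACC* and *GLaz* were chosen after their values were seen. Fat body is the main source of lipophorin. The 6 fat body markers listed summed to 0.216 to 0.859 CPM at 120 h AEL and 0.119 to 1.47 CPM at 96 h AEL. The part of fat body RNA in the *Rfabg* values was not tested.

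Of 28 tested glutathione S-transferases, enzymes that conjugate glutathione to reactive compounds, 11 were higher and 9 lower (39.3% and 32.1%; median 0.11), beside 24.6% higher and 22.2% lower over all genes. *GstO3* had 2286, 2817, 2502 and 1236 CPM at 120 h AEL and 497, 580.5, 474, 471 and 376 CPM at 96 h AEL (log2 fold change 2.20, SE 0.21, FDR 2.86e-05). *GstD1*, the member with the most UMIs, had 7562, 7971, 6918 and 4554 CPM at 120 h AEL and 3623, 4172, 3253, 4044 and 3229 CPM at 96 h AEL (log2 fold change 0.88, SE 0.16, FDR 9.64e-04). In contrast, *GstD7* had 4.14, 6.77, 5.30 and 8.28 CPM at 120 h AEL and 82.3, 74.3, 99.1, 73.6 and 65.5 CPM at 96 h AEL (log2 fold change −3.71, SE 0.21, FDR 2.14e-06). *GstE7* had 2.87, 9.06, 4.16 and 8.43 CPM at 120 h AEL and 34.3, 45.1, 31.5, 15.2 and 12.2 CPM at 96 h AEL (log2 fold change −2.19, SE 0.45, FDR 0.00235). Both directions were found within a single cluster of neighbouring genes on chromosome 3R. By the RefSeq annotation of Release 6, *GstD10* (12364776 to 12365735), *GstD9* (12366163 to 12367564) and *GstD1* (12367817 to 12369268) lie side by side, and these were higher at 120 h AEL by 0.78, 0.68 and 0.88 on the log2 scale. The next genes in order, *GstD2* (12371971 to 12372704), *GstD3* (12373068 to 12373813) and *GstD4* (12374100 to 12374824), fell by 1.02, 1.03 and 0.99. *GstD5* (12375733 to 12376572) did not pass (−0.01, FDR 0.986), *GstD6* was too scarce to test, and *GstD7* (12378500 to 12379255) fell by 3.71. *GstD2* to *GstD5*, *GstD9* and *GstD10* were chosen after their values were seen. Members of this family are similar in sequence, so reads could be split between them.

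The heat shock list depended on library 2. Of 9 tested, 6 were higher and 0 lower at 120 h AEL (median log2 fold change 3.90), but 2 were higher without library 2, with a median of 0.19. Over all genes 24.6% were higher, and 21.9% without library 2, so that the count without it is near the background. *Hsp26*, a small heat shock protein, had 181, 6046, 94.2 and 18.3 CPM in libraries 1 to 4 of 120 h AEL, against 69.8, 8.31, 12.8, 31.8 and 10.9 CPM in libraries 1 to 5 of 96 h AEL. Its FDR was 0.0651 without library 2 and 0.00820 with it. *Hsp27* differed from it, with 1436, 3900.4, 1559 and 506 CPM at 120 h AEL and 159, 105, 92.2, 147 and 120.1 CPM at 96 h AEL (log2 fold change 3.90, SE 0.47, FDR 1.01e-04; without library 2 3.23, FDR 9.11e-05). *Hsp23* had 2066, 8547, 1788 and 145 CPM at 120 h AEL and 213, 13.8, 35.9, 111 and 33.9 CPM at 96 h AEL, so that library 4 fell within the 96 h range (log2 fold change 5.28, SE 1.08, FDR 0.00236). Small heat shock genes, *Hsp23* and *Hsp27* among them, are known from other fly tissues to respond to ecdysone as well as to heat.

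Cells were split by which marker pair they held more of, to see whether the changes were found among cells led by either pair. A cell with more UMIs of *Tep4* and *Ance* than of *Hml* and *Pxn* was placed on the prohemocyte side, and one with more of the second pair on the plasmatocyte side; these 4 genes were not tested there. Cells of other types, such as crystal cells, were placed by these 4 genes as well, so a side is not a cell class. There were 7047 and 4081 such cells at 120 h AEL and 4289 and 5288 at 96 h AEL. On the prohemocyte side 1923 genes were higher and 1744 lower of 7136 (51.4% called), and on the plasmatocyte side 1308 and 1146 of 7121 (34.5% called). The named rises and falls were chosen for their change over the same cells, so that passing on a side is no separate support. The named rises passed on both sides wherever they were tested, 11 of 11 and 10 of 10. Of the named falls 11 of 12 and 11 of 11 passed, the exception being *CG43799* among prohemocyte-sided cells (−0.35, FDR 0.433). Whether the sides differ in any gene was not tested. *Ance*, which sets the prohemocyte side, was itself higher at 120 h AEL, so a side need not hold the same cells at both ages. The part of this in the changes on either side was not tested.

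The leading rises were found at different levels on the sides. In CPM of that side's own UMIs, *CG34296* had 2255, 2989, 1422 and 165 CPM on the prohemocyte side at 120 h AEL and 0 to 1.27 CPM at 96 h AEL, and 69.8, 58.0, 37.3 and 1.25 CPM against 0 to 0.257 CPM among plasmatocyte-sided cells. *NLaz*, *Dtg* and *Obp99b* had the higher level on the prohemocyte side in each 120 h library. They had 5.53 to 307, 33.3 to 284 and 2.92 to 162 CPM on that side and 3.87 to 30.3, 5.26 to 41.0 and 0.692 to 4.40 CPM on the plasmatocyte side. *CG42792* did so in libraries 1 to 3 and not in library 4, with 93.4, 122, 119 and 0 CPM on the prohemocyte side and 20.3, 18.5, 9.18 and 3.32 CPM on the plasmatocyte side. *CG6910* was arranged the other way, with 213, 178, 194 and 112 CPM at 120 h AEL and 0.116 to 1.54 CPM at 96 h AEL on the plasmatocyte side. On the prohemocyte side it had 29.4, 29.0, 43.8 and 11.1 CPM at 120 h AEL and 0 UMIs in all 96 h libraries. Among the falls, *CG13160* had 1.52 to 7.84 CPM at 120 h AEL and 53.4 to 117 CPM at 96 h AEL on the prohemocyte side, and 0.291 to 0.969 CPM and 0.671 to 2.44 CPM at these ages on the plasmatocyte side. *CG34054* was arranged the other way and passed on both sides. It had 2.09 to 4.25 CPM at 120 h AEL and 6.67 to 16.8 CPM at 96 h AEL on the prohemocyte side (−1.64, FDR 0.00100). On the plasmatocyte side it had 16.1 to 20.3 CPM and 193 to 301 CPM at these ages (−3.61, FDR 2.10e-08). *Nplp2* fell on both, by 3.30 (SE 0.34, FDR 4.02e-05) among prohemocyte-sided and by 3.05 (SE 0.17, FDR 1.49e-07) among plasmatocyte-sided cells on the log2 scale. Cell division genes fell on both as well, with 33 of 35 replication genes lower among prohemocyte-sided cells and 21 of 34 among plasmatocyte-sided cells, beside 24.4% and 16.1% over all genes. Ecdysone response genes counted 11 higher and 0 lower of 15, and 8 higher and 1 lower of 16, beside 26.9% and 18.4% higher over all genes.

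Genes of mature hemocytes were raised among prohemocyte-sided cells at 120 h AEL. Of the plasmatocyte and phagocytosis list 7 of 7 tested genes were higher there (median log2 fold change 2.10), beside 26.9% higher over all genes. Of the other lists 5 of 8 basement membrane genes were higher and 2 lower, and 4 of 5 crystal cell markers were higher and 1 lower. *NimC1* had 132, 81.4, 93.7 and 33.2 CPM there, against 10.99, 12.2, 9.68, 12.1 and 8.998 CPM at 96 h AEL (log2 fold change 3.09, SE 0.32, FDR 4.02e-05). *Cg25C*, a collagen IV chain of basement membrane, had 429.9, 418, 444 and 255 CPM at 120 h AEL and 72.1, 60.2, 30.4, 32.9 and 39.5 CPM at 96 h AEL (3.19, SE 0.28, FDR 1.77e-05), although it did not pass in all cells (FDR 0.0539; it passed there without library 1 of 120 h AEL or library 5 of 96 h AEL). Both genes were several times higher in every 120 h library than in any 96 h library on this side. *PPO1* had 434, 169, 26.3 and 56.5 CPM at 120 h AEL and 17.9, 9.54, 5.03, 5.201 and 11.5 CPM at 96 h AEL (4.28, SE 0.72, FDR 6.71e-04). Its plasmatocyte-sided levels of 645 to 1253 CPM at 120 h AEL and 998 to 1651 CPM at 96 h AEL did not pass (FDR 0.0931). Both sides of the split can hold cells of the other. At 120 h AEL 25.0% to 40.5% of the cells in a library, and at 96 h AEL 18.3% to 27.7%, had less than a 3-fold excess of either pair. A fit that left such cells out is given below as counts of genes only. The part of such cells in the values of single genes, of the rise of *Ance* in the split, and of free RNA was not tested. *BM-40-SPARC*, a collagen-binding matrix protein, likewise rose by 2.19 on this side (FDR 6.17e-05) and by 0.32 in all cells (FDR 0.00734). *Ppn* (papilin), a matrix protein, was lower in all cells, with 92.7, 145, 131 and 354 CPM at 120 h AEL and 397, 561, 873, 797 and 1008 CPM at 96 h AEL (log2 fold change −2.01, SE 0.40, FDR 0.00193). *Tep1*, a thioester protein that opsonizes microbes, is the 1 named gene that passed in opposite directions. It had 589 to 674 CPM at 120 h AEL and 353 to 542 CPM at 96 h AEL on the prohemocyte side (0.63, FDR 0.00293). It had 431 to 548 CPM and 977 to 1055 CPM on the plasmatocyte side (−0.93, FDR 2.29e-05).

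**Figure D4:**
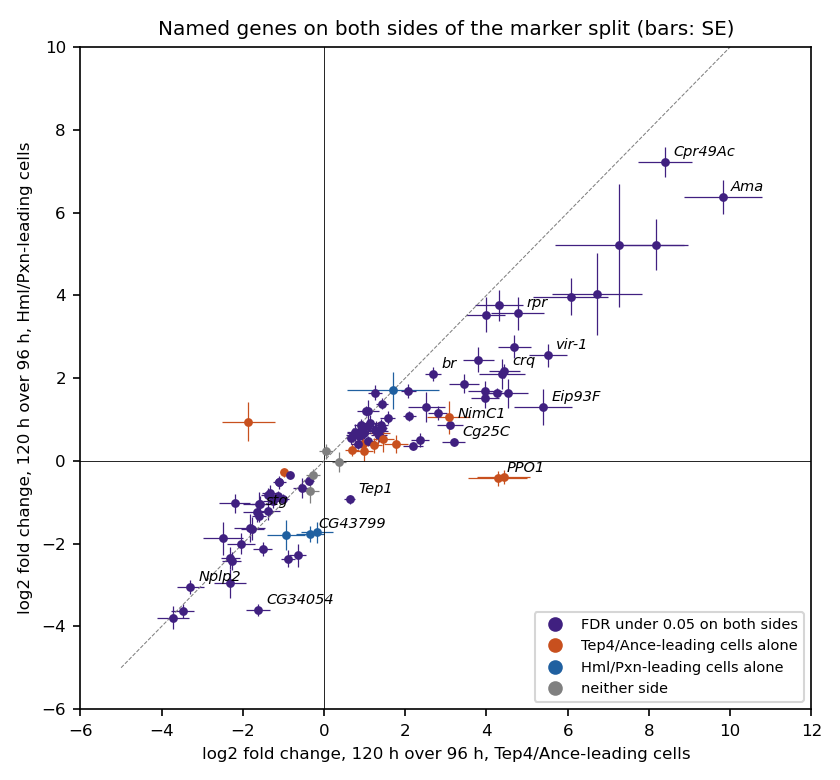
Log2 fold change of 120 h over 96 h AEL in prohemocyte-sided cells (horizontal axis) against plasmatocyte-sided cells (vertical axis) for 103 named genes with more than 3 UMIs in each age and side, with SE bars and a dashed line of equal change. Both sides passed FDR 0.05 for 83 genes, the prohemocyte side alone for 12, the plasmatocyte side alone for 4 and neither for 4.

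The share of plasmatocyte-sided cells among cells of either side was 20.2%, 32.6%, 36.4% and 57.6% in the 120 h libraries, given from low to high, and 51.1%, 54.1%, 54.7%, 55.2% and 58.9% in the 96 h libraries. It averaged 36.7 ± 15.6% at 120 h AEL (SD, n = 4) and 54.8 ± 2.82% at 96 h AEL (SD, n = 5), a difference of −18.1 percentage points (two-sided exact permutation test, p = 0.0794). Library 4 of 120 h AEL had the 57.6%, within the 96 h range, and without it the difference was −25.0 points (p = 0.0357 by the same exact permutation test, the smallest that 3 against 5 libraries allow). Since *Ance*, which sets the prohemocyte side, itself rose with age, the share cannot be read as that of a cell class.

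Set beside the glands of 72 h AEL in a fit of all 14 normal lymph gland libraries, the genes that changed by 120 h AEL had followed different courses. Both steps share the 96 h libraries, so they are given side by side only. Between 96 and 72 h AEL 1591 of 7891 genes passed (20.2%), 814 higher (10.3%) and 777 lower (9.85%) at 96 h AEL. *Nplp2* had 31235 to 39635 CPM at 72 h AEL, 22375 to 26345 CPM at 96 h AEL and 1742 to 4396 CPM at 120 h AEL, and its 96 over 72 h AEL log2 fold change was −0.49 (FDR 0.102). *CG13160* fell in both steps, with 118 to 225 CPM at 72 h AEL, 25.7 to 53.3 CPM at 96 h AEL and 1.20 to 4.29 CPM at 120 h AEL (−2.34 over the first step, FDR 3.72e-05). *GstD7* and *bmm* did likewise (−0.99 and −1.36, FDRs 0.00120 and 0.00175). *br* rose in both, with 7.20 to 28.0 CPM, 51.0 to 90.5 CPM and 313 to 456 CPM in the order of age (2.03, FDR 5.34e-05), as did *Drs*, *drpr* and *crq* (3.83, 1.27 and 2.01).

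Other genes turned. *Hr4* had 4.33, 21.4, 10.0, 14.8 and 15.8 CPM in the 5 libraries of 72 h AEL, 0.300 to 0.660 CPM at 96 h AEL and 2.07 to 49.0 CPM at 120 h AEL, a fall over the first step (−4.82, FDR 5.57e-04) before the rise. *E23* took the same course, with 6.15, 15.2, 16.2, 5.82 and 11.5 CPM at 72 h AEL (−4.04, FDR 8.97e-05). The ecdysone response list as a whole counted 2 higher and 8 lower of 19 tested at 96 h over 72 h AEL, with a median of −0.41. Over all genes 10.3% were higher and 9.85% lower in that step. Conversely, genes of cell division did not fall over the first step, at which 0 of 35 replication and 0 of 37 mitotic genes were lower and 2 and 3 were higher. *stg* had 82.0 to 122 CPM at 72 h AEL and 74.0 to 121 CPM at 96 h AEL (FDR 0.884), and *sun* 429 to 659.9 CPM and 481 to 577 CPM (FDR 0.729). *PPO1* appeared over the first step, with 44.0, 0.223, 0, 0.188 and 0 CPM at 72 h AEL and 564 to 776 CPM at 96 h AEL (5.89, FDR 7.97e-04).

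**Figure D5:**
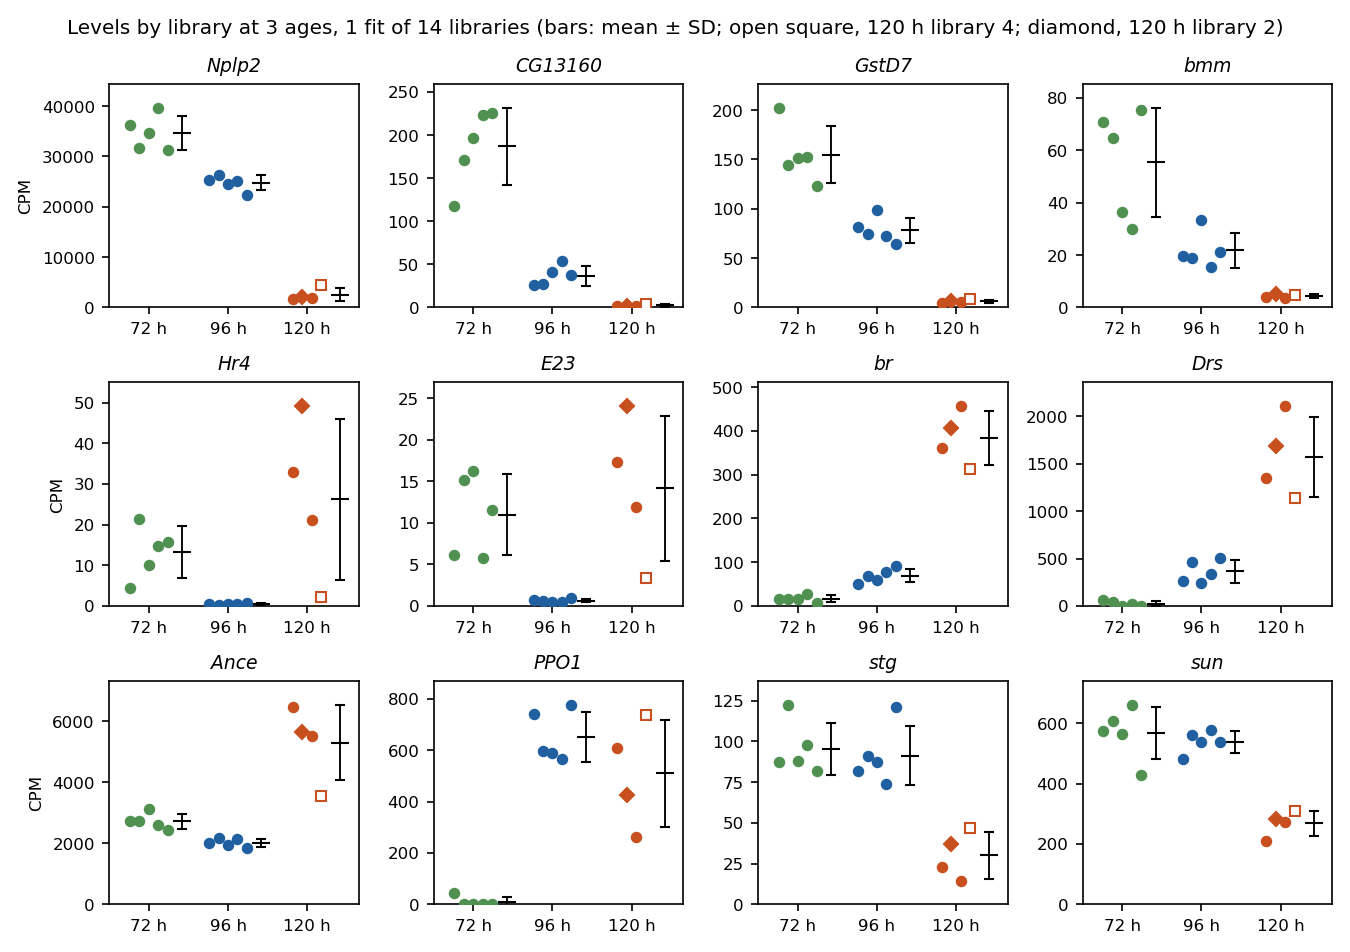
Level of 12 genes in each normal lymph gland library at 72, 96 and 120 h AEL (5, 5 and 4 libraries), in CPM on linear axes from 0, scaled in 1 fit of 14 libraries, with the mean and SD beside each age. *CG13160*, *GstD7* and *bmm* fall over both steps, *br* and *Drs* rise over both, *Hr4* and *E23* are lowest at 96 h AEL, and *stg* and *sun* are lower at 120 h AEL.

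The change was also set against that of circulating hemocytes, which descend from the mesoderm of the embryonic head and not from the gland. Each of the circulation libraries labelled 3 was nearer to the libraries of the other age than to those of its own label. Over the 2000 genes most abundant in circulation, the library labelled 120 h AEL 3 had correlations of 0.938 to 0.940 with libraries 1 and 2 of its own label and 0.974 to 0.983 with those labelled 96 h AEL. The library labelled 96 h AEL 3 had 0.895 to 0.926 with libraries 1 and 2 of its own label and 0.931 to 0.968 with those labelled 120 h AEL. These correlations are across genes. *Cpr49Ac* had 468, 816 and 74.0 CPM in the libraries labelled 120 h AEL 1 to 3, against 53.5, 59.2 and 875 CPM in those labelled 96 h AEL 1 to 3. *CG6910* had 227, 218 and 2.45 CPM and 2.63, 6.14 and 226 CPM in the same order. For both genes each library labelled 3 was nearer to libraries 1 and 2 of the other age. The groups were kept as labelled, so each result with these libraries is also given without them. Of 8612 genes, 1501 differed in their change between the lymph gland and circulation (17.4%; interaction term in edgeR), 845 with a more positive (9.81%) and 656 with a more negative change (7.62%) in the gland. In circulation itself 0 of 8612 genes passed between the libraries labelled 120 and 96 h AEL, and 687 had an unadjusted p under 0.05. Without the libraries labelled 3, 261 of 8976 genes passed in circulation (2.91%), 136 higher (1.52%) and 125 lower (1.39%). Between the tissues 471 then differed (5.25%), 295 with a more positive (3.29%) and 176 with a more negative change (1.96%) in the gland. By the marker split above, circulation was nearly all plasmatocyte-sided. The share was 98.1% to 99.6% in libraries labelled 96 h AEL and 93.6% to 99.6% in those labelled 120 h AEL. In the gland it was 51.1% to 58.9% and 20.2% to 57.6% at these ages. The part of this difference in cells in the interaction was not tested.

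Some named genes differed between the tissues in both fits. *Nplp2* had 9309, 7493 and 29258 CPM in circulation libraries labelled 120 h AEL and 22352, 24345 and 4655 CPM in those labelled 96 h AEL. Its change in the gland was the more negative by 3.11 on the log2 scale (FDR 0.0119), and by 1.80 without the libraries labelled 3 (FDR 0.0215). *Gal* had 111, 212 and 54.8 CPM in circulation libraries labelled 120 h AEL and 66.5, 75.4 and 140.0 CPM in those labelled 96 h AEL, against which the gland's rise was larger by 6.96 (FDR 8.46e-04; 6.18 and FDR 0.00423 without the libraries labelled 3). For *CG8157*, *bmm*, *drpr* and *crq* the difference also held without those libraries (−2.41, −1.66, 2.55 and 1.97). In contrast, *CG6910* differed with all libraries (6.71, FDR 0.0240) and not without those labelled 3 (1.77, FDR 0.135), and *br* passed in neither (FDR 0.0606 and 0.301). Of the 11 named rises that were tested here, 8 passed with all libraries and 4 without the libraries labelled 3. Of the 12 named falls 9 and 5 passed. Over all genes 17.4% and 5.25% passed, but the named genes were chosen for their change in the gland, which is part of the term.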

How the data were processed

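Count tables of 20 Drop-seq libraries of normal larvae were used, of which 9 (4 of the lymph gland at 120 h AEL and 5 at 96 h AEL) enter the main comparison. The deposited UMI counts per gene and barcode were made by the authors with Drop-seq tools and STAR, aligned to BDGP6 per the labels; barcodes were kept above a minimum of reads that differed between libraries, and the counts are neither normalized nor filtered further. No doublet caller was run. Barcodes with 400 to 5000 genes and at most 10% mitochondrial UMIs were kept and their counts were summed per library, so that the replicate is the library, not the cell. The labels name the libraries biological replicates. The sums were tested with edgeR (version 4.0.16, R 4.3.3) by the quasi-likelihood method with TMM scaling and the default expression filter, and p-values were adjusted by Benjamini and Hochberg over all genes tested, with a threshold of 0.05. The 72 h glands entered a 14-library fit and the normal circulation a 15-library fit with an interaction term. Shares of cells were compared by exact permutation. CPM on the sides of the marker split are plain counts scaled to the total of that side's UMIs. Summed levels of gene lists are plain counts scaled to the library's total. The test was checked on simulated data. Circulation cells were kept at up to 20% mitochondrial UMIs.

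Genes were named by a rule: the 12 largest rises and falls at 20 CPM or more whose libraries did not overlap and which also passed without library 2 of 120 h AEL, of each gene list the pair with the largest change and the pair with the most UMIs, and the markers of the study's lymph gland classes. The comparison, the gene lists and the tests were chosen with earlier results of these data known. Positions come from the RefSeq annotation of *Drosophila* Release 6 and were matched by symbol. DESeq2 (1.42.0), other scalings and filters, thinned counts, a replicate block and leaving out each library were run as alternatives. The depth of 6068692 UMIs or more per library limits scarce genes, and PCR duplicates are removed by the UMIs.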

Additional observations from a re-analysis of the deposited data

Results flagged for a closer look

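In 4 or 5 libraries of an age, a library was set aside as far from its others when its gap to the nearest exceeded Dixon's 95% limit for that number, which chance passes in about 1 of 20 groups. The limit was applied to both ages of 128 named genes, so a part of these flags is to be met by chance. The genes share the same libraries and are not independent. Library 4 of 120 h AEL was such a library for 8 named genes: *CG42792* (1.86 CPM), *Cpr49Ac* (227 CPM), *Nplp2* (4435 CPM), *CG8157* (9896 CPM), *CG3726* (32.1 CPM), *GstD9* (22.5 CPM), *ACC* (10.9 CPM) and *numb* (8.13 CPM), a regulator of cell fate and Notch. Each of these values lay on the side of the 96 h libraries. Library 2 of 120 h AEL was far from the others for *Hsp26* (6046 CPM) and for the share of UMIs on heat shock genes (2.01%). Library 3 of 120 h AEL was high for *Tep2* (72.4 CPM), *Ptp61F* (71.9 CPM) and *PGRP-SC1a* (3.31 CPM), and library 1 for *Tpi*, triose phosphate isomerase (220.04 CPM).

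Among the 96 h libraries, library 1 was apart for *Cpr49Ac* (2.41 CPM), *Antp* (11.9 CPM), *Eip74EF* (9.33 CPM), *NimB4* (206 CPM) and the heat shock share (0.194%), and library 2 for *rpr* (5.26 CPM), *Mlc1*, a muscle myosin light chain (20.2 CPM), *Eip63F-1* (3.66 CPM) and *AttC* (0.701 CPM). Library 4 of 96 h AEL was apart for *CG42792* (0.866 CPM), *atilla* (37.3 CPM) and *Sirup* (24.6 CPM), and library 5 for *CG42846* (37.2 CPM) and *eater* (234 CPM).

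The change between 120 and 96 h AEL differed between the lymph gland and circulation, by the interaction term, in 17 of the named rises and falls. Over all genes 17.4% differed. The named genes were chosen for a large change in the gland, which is part of the term, so the count is no separate support. Circulation was nearly all plasmatocyte-sided, unlike the gland, and the part of this in the differences was not tested. The gland's change was the more positive for *Obp99b* (9.99 on the log2 scale), *CG4950* (8.07), *Cpr49Ac* (7.16), *CG43446* (7.02), *Gal* (6.96), *Ama* (6.78), *CG6910* (6.71) and *CG6357* (5.96). It was the more negative for *Cyt-b5-r* (−4.54), *GstD7* (−3.70), *CG34054* (−3.50), *Nplp2* (−3.11), *GstE7* (−2.95), *CG8157* (−2.92), *bmm* (−2.09), *CG3726* (−2.08) and *CG9396* (−2.0005). Without the circulation libraries labelled 3, 9 of these passed: *Cpr49Ac* (4.09), *Gal* (6.18), *Obp99b* (9.94), *CG43446* (5.37), *GstD7* (−1.51), *Cyt-b5-r* (−3.63), *Nplp2* (−1.80), *CG8157* (−2.41) and *bmm* (−1.66).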

How the results depend on the processing

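Without the circulation libraries labelled 3, the number of genes that differed in their change between the tissues was 471 and not 1501. Leaving out 1 library at a time gave 3050 to 4066 changed genes in all cells, 3046 to 4151 among prohemocyte-sided and 1812 to 2480 among plasmatocyte-sided cells, and a share difference of −25.0 to −12.6 points. In all cells DESeq2, run without edgeR's expression filter, called 3958 of 15021 genes (26.3%), against 3630 of 7760 (46.8%) in the main fit. Counts thinned to 2000 UMIs called 2695 of 6789 (39.7%). With a 3-fold excess of one marker pair, 3550 of 7010 genes passed among prohemocyte-sided and 1678 of 6847 among plasmatocyte-sided cells. The replicate numbers did not pair the libraries (correlations of deviations 0.30, −0.26, −0.34 and −0.25 over 2000 genes), and with a replicate block 2871 of 7760 genes passed. *Tep4* turned negative with a UMI ceiling (−0.012) and in thinned counts (−0.052), and ran from −0.075 to 0.161 with 1 library left out. *Pxn* ran from −0.225 to 0.222 with 1 library left out, and was −0.204 without libraries 2 and 4 of 120 h AEL. Neither gene was called. Of 113 called genes named here, 15 lost the call under at least 1 of the 19 alternatives for all cells, and the cause was not tested. Leaving out libraries 2 and 4 of 120 h AEL together, and the list counts without either, were chosen after seeing the data. Depth limits genes near 1 CPM, for which a few UMIs decide a library's value.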

Other observations

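Genes of the Notch pathway, which directs crystal cell fate, counted 2 higher and 1 lower of 17 tested (11.8% and 5.88%; median log2 fold change 0.31). Over all genes 24.6% were higher and 22.2% lower, so that both shares of the list are below the background. The ligand gene *Ser* had 1.22, 2.24, 0.468 and 2.24 CPM in libraries 1 to 4 of 120 h AEL and 6.32, 4.06, 6.30, 4.10 and 5.01 CPM in libraries 1 to 5 of 96 h AEL (log2 fold change −1.78, SE 0.39, FDR 0.00360), and *kuz*, the metalloprotease that cleaves the receptor, 261 to 426 CPM and 133 to 205 CPM at these ages (log2 fold change 1.02, SE 0.17, FDR 5.71e-04). Of 11 glycolytic genes 3 were higher and 2 lower (median 0.02), among them the hexokinase gene *Hex-A* with 31.4 to 50.8 CPM at 120 h AEL and 62.9 to 99.7 CPM at 96 h AEL (log2 fold change −1.05, SE 0.18, FDR 7.50e-04) and *Tpi* with 180.2 to 220.04 CPM and 69.5 to 91.4 CPM (log2 fold change 1.25, SE 0.11, FDR 1.42e-05). Of 11 genes of protein folding in the endoplasmic reticulum 1 was higher and 0 lower. Beside the shares over all genes, the glycolytic counts are near the background and those of protein folding below it.

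*Akh*, the adipokinetic hormone gene of the corpora cardiaca in the ring gland, had 2048 and 2052 UMIs in libraries 4 and 5 of 96 h AEL, against 1 to 4 UMIs in the other libraries of that age and 2 to 16 at 120 h AEL. Neuron markers summed to 242 to 425 CPM at 120 h AEL and 180 to 256 CPM at 96 h AEL, but *Syx1A*, a syntaxin that also serves membrane traffic outside neurons, gave 32281 of 32795 UMIs at 120 h AEL and 15156 of 15515 at 96 h AEL. The neuronal genes *nSyb*, *Syt1*, *brp*, *VGlut* and *Cha* had at most 17 UMIs in any library. Of the list 2 were tested and 1 was higher. Of fat body markers 39 UMIs were counted over the 120 h libraries and 49 over the 96 h libraries, and of salivary gland markers 11 and 3.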
